A study of Arabidopsis thaliana with 9 samples.

Results

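The PIF factors and the helix-loop-helix (HLH) proteins that hold them in check were followed here across 2 altered genotypes of Arabidopsis thaliana. The genes were chosen by locus: PIF1 (AT2G20180), PIF3 (AT1G09530), PIF4 (AT2G43010), PIF5 (AT3G59060), PIF7 (AT5G61270), PIF8 (AT4G00050), HFR1 (AT1G02340), PAR1 (AT2G42870), PAR2 (AT3G58850) and PIL1 (AT2G46970). All 10 were found among the 37328 genes of the authors' deposited table, and 9 were tested there in both comparisons. PIL1 was listed with a q value of 1 in both and counts as not tested.

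PIFs are basic helix-loop-helix (bHLH) transcription factors that bind the light-activated form of phytochrome, which leads to their breakdown. In darkness and in shade they accumulate, promote stem elongation and hold back chlorophyll and photosynthesis genes. HFR1, PAR1 and PAR2 carry an HLH domain without normal DNA binding. They form inactive dimers with PIFs, and PIF activity itself raises their transcription in shade, which closes a negative feedback loop.

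Whole seedlings of 3 genotypes were sequenced with 3 replicates each, all in the Col-0 ecotype and 7 days old, grown under continuous white light. The genotypes were RPGE2-OX, an RPGE2 overexpression line, glk12, a double mutant of glk1 and glk2, and the wild type (WT). The labels name neither the promoter of the overexpression construct nor how many independent lines were used. RPGE proteins are repressors of the GOLDEN2-LIKE (GLK) factors, which switch on nuclear photosynthesis genes. No group was shaded, so the values describe plants in full white light.

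The table gave 1 log2 ratio and 1 q value per gene and line, with no level or count for any replicate. Values per sample, sequencing depth and levels compared between genes therefore cannot be given, and in whole seedlings fewer cells of a type and less RNA per cell cannot be told apart. A gene was called at q below 0.05. The errors printed as ± are standard errors implied by the authors' q value and ratio, and they are an upper bound for a gene at the lowest q. The labels do not state whether the 3 replicates were grown separately, and the q values may measure technical spread alone.

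The targeted genes were read first. In the authors' deposited table the RPGE family locus AT3G55240 was higher in RPGE2-OX by 27.7-fold and lower in glk12 by 88.2-fold, although no locus there bears the name RPGE2. A second locus of the family, AT1G10657, was lower in both lines in the deposited table, by 44.2-fold in RPGE2-OX (q = 0.0018) and by 2.41-fold in glk12 (q = 0.0019). GLK1 had a deposited log2 ratio of 0.45 in RPGE2-OX (q = 0.013) and of -2.64 in glk12 (q = 0.0019). GLK2 stood at a deposited ratio of 0.40 in RPGE2-OX (q = 0.038) and at -1.41 in glk12. Of 10 root markers, 3 fell in each line: RCI3, PRP3 and COBL9 in RPGE2-OX, and RCI3, COBL9 and EXPA18 in glk12. The share of all tested genes called lower was 3.92% in RPGE2-OX and 3.01% in glk12. The medians of the marker list were -0.43 in RPGE2-OX and -0.57 in glk12, the ratios ran from -0.68 to 0.07 in RPGE2-OX and from -0.89 to 0.21 in glk12, and the part of root tissue in the values that follow was not tested. The median of 10 reference genes was 0.00 in RPGE2-OX and 0.21 in glk12, against medians over all tested genes of 0.01 in RPGE2-OX and 0.02 in glk12.

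By gene structure PAR1 and PAR2 were the shortest members, and HFR1 lay between them and the others in coding length. On TAIR10.1, RefSeq annotates PIF1 (chromosome 2, 8704024 to 8707009), PIF3 (chromosome 1, 3075768 to 3079654), PIF4 (chromosome 2, 17886101 to 17889087), PIF5 (chromosome 3, 21827905 to 21830837), PIF7 (chromosome 5, 24638491 to 24640765) and PIF8 (chromosome 4, 17639 to 20183) with longest coding sequences between 1101 bases in PIF7 and 1575 bases in PIF3. PIL1 (chromosome 2, 19295431 to 19297858) has 1251 coding bases. HFR1 (chromosome 1, 465616 to 467880) has 879 coding bases in 5 exons. PAR1 (chromosome 2, 17836416 to 17837618) and PAR2 (chromosome 3, 21759350 to 21760390) each have a single exon with 357 coding bases. They are the most alike pair of the set, with 75.3% identical columns in a global alignment of their coding sequences, followed by PIF4 and PIF5 with 59.2%. The longest run of identical bases was 15 between PAR1 and PAR2 and 23 between PIF4 and PIF5, and over all pairs it reached 28, between PIF1 and PIF4.

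PIFs bind the G-box (CACGTG) and the PIF-binding E-box (CACATG), so both were searched on both strands upstream of each member. In the window from 270 bases before to 30 bases after the annotated start, 1 of the 10 members held a G-box, against 7.5% of 27443 protein-coding genes, and 2 held the E-box, against 13.0%. Over 1000 bases before the start, 3 members held a G-box (14.8% of genes) and 5 the E-box (37.7% of genes). The hexamer CCAATC, which has been linked to promoters of GLK-dependent genes, was in 1 of the 10 short windows (12.3% of genes) and in 4 of the long ones (36.8% of genes). PAR1 and PAR2 stood apart in the number of matches: PAR1 had 4 E-box matches and PAR2 had 5 within 1000 bases, where 0.56% of genes have 4 or more. The stretch from 950 to 701 bases before the start is shown for both, since most of these matches lie there, with G-box and E-box letters in capitals. It covers chr2:17838319-17838568 for PAR1 and chr3:21761091-21761340 for PAR2, both read on the minus strand of TAIR10.1 (RefSeq). The PAR1 stretch overlaps AT2G09405, annotated as a long non-coding RNA, and the PAR2 stretch overlaps no annotated gene.
PAR1: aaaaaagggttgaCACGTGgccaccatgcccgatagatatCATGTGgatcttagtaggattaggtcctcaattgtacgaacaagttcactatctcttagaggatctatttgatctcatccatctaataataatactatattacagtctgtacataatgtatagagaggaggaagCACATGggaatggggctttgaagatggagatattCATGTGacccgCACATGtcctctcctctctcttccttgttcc
PAR2: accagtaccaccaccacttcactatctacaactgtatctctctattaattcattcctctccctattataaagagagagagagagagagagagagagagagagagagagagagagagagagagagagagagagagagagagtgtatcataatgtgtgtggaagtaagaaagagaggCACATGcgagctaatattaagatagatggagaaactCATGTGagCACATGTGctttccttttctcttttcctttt

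Both stretches hold E-box matches close together towards their end, at 776, 742 and 731 bases before the start in PAR1 and at 775, 739, 731 and 729 in PAR2, where the last pair overlaps within 1 palindrome. PAR1 also has a G-box at 937 and an E-box at 910, near the beginning of its stretch. These positions were noticed after the search and are a description of the letters only.

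Among the PIF genes that fell in RPGE2-OX, PIF5 holds a G-box and PIF7 an E-box palindrome in the short window, while PIF4 holds neither. The PIF5 match begins 165 bases before the annotated start, whereas the PIF7 palindrome lies after it, from base 20. PAR2, which also fell, holds an E-box 128 bases before its start. Whether these matches bear on the falls was not tested. The windows of PIF5 (chr3:21830808-21831107) and PIF7 (chr5:24640736-24641035), both on the minus strand of TAIR10.1 from RefSeq, are shown as those of the PIF genes with a match, with the matches in capitals.
PIF5: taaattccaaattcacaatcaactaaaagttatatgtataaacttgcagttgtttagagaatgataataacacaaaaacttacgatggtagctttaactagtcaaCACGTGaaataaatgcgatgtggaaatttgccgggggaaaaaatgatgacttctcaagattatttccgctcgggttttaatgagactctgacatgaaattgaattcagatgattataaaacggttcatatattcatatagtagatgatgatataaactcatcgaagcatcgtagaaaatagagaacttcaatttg
PIF7: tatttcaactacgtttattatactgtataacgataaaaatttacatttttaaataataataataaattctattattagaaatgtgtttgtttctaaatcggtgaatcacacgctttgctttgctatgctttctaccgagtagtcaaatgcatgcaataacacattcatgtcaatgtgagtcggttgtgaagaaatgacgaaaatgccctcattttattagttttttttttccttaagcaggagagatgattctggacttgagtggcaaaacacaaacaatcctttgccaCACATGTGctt

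HFR1 had no match in the short window. Over 1000 bases its matches were 1 G-box and 1 E-box, which begin 1000 and 413 bases before the start.

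The comparison of RPGE2-OX with WT asked which transcripts respond to more RPGE2. PIF4, PIF5 and PIF7 fell, and so did PAR2, while HFR1 rose. In the authors' deposited values, 5 of the 9 tested members were called, against 6.55% of all tested genes. The 4 members that fell compare with 3.92% of all tested genes and the 1 that rose with 2.53% (called genes with a finite ratio). The median log2 ratio of the 9 was -0.21.

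PIF4, which drives elongation in warmth and shade, had the lowest deposited ratio of the set in RPGE2-OX. In the authors' deposited table its log2 ratio was -0.72 ± 0.18 (q = 0.0018), so it was 1.65-fold lower. Its q value is the lowest that the table holds for this line. Other genes share that value, RCI3 and AT3G55240 among them, so it does not rank PIF4 above them. PIF7, the factor most directly tied to rapid shade-induced auxin synthesis, was 1.48-fold lower in RPGE2-OX (deposited log2 ratio -0.56 ± 0.15, q = 0.0046). PIF5, a close relative of PIF4 with overlapping roles, was 1.36-fold lower (deposited log2 ratio -0.44 ± 0.13, q = 0.014). The falls were therefore modest in size, and only that of PIF4 was above 1.5-fold.

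The other PIF genes did not pass the threshold in RPGE2-OX. PIF3, a main repressor of greening in darkness, had a deposited log2 ratio of -0.21 ± 0.14 (q = 0.52). PIF1, which holds back seed germination and chlorophyll synthesis, stood at -0.09 ± 0.14 (q = 0.87). PIF8, which acts in far-red light signalling, was the only PIF gene with a ratio above 0 in the deposited table, at 0.24 ± 0.14 (q = 0.42). With these errors a log2 ratio of 0.41 would have been needed to pass for PIF1, PIF3 and PIF8 alike, so smaller changes were not detectable.

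The HLH antagonists did not move together in RPGE2-OX. HFR1, which promotes de-etiolation and limits shade elongation, was 1.40-fold higher in the authors' deposited table (log2 ratio 0.49 ± 0.15, q = 0.023). PAR2, which restrains elongation and auxin-responsive genes, was 1.45-fold lower (deposited log2 ratio -0.54 ± 0.18, q = 0.038). PAR1, its nearest relative, did not pass, with a deposited ratio of -0.14 ± 0.16 (q = 0.80). HFR1 lay 0.05 and PAR2 0.02 beyond the size of log2 ratio that each needed to pass, 0.44 for HFR1 and 0.52 for PAR2. PIL1, a shade-induced relative of the PIFs, had an untested ratio of -0.48 in the deposited table.

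**Figure D1:**
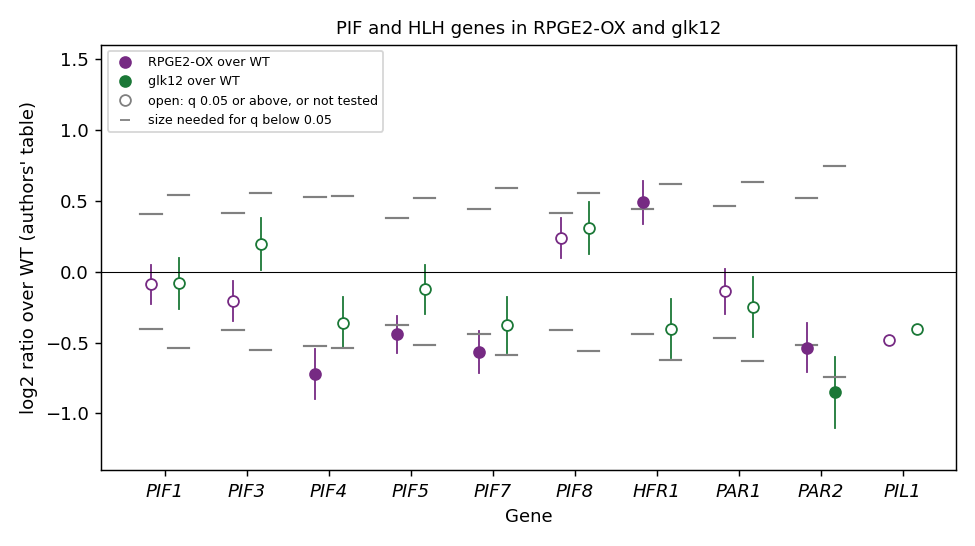
Deposited log2 ratio over WT (vertical axis) of each of the 10 genes in RPGE2-OX (purple) and glk12 (green); lines show ± 1 implied standard error, filled circles mark q below 0.05 and grey dashes the size of ratio each gene needed to pass. PIF4, PIF5, PIF7 and PAR2 lie below 0 and HFR1 above 0 as filled purple circles, while PAR2 is the only filled green circle; PIL1 was not tested and has no error.

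The comparison of glk12 with WT addressed what loss of both GLK genes does to these transcripts. PAR2 was the only member that passed. It was 1.8-fold lower in glk12, with a log2 ratio of -0.85 ± 0.25 in the authors' deposited table (q = 0.016). That is 1 of 9 tested members, against 5.67% of all tested genes (3.01% called lower with a finite ratio), and the median log2 ratio of the 9 was -0.25. No member rose, against 2.56% of all tested genes, and 7 of the 9 ratios lay below 0.

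None of the PIF genes passed in glk12. The deposited ratios of the genes that fell in RPGE2-OX were -0.36 ± 0.18 for PIF4 (q = 0.30), -0.37 ± 0.20 for PIF7 (q = 0.35) and -0.12 ± 0.17 for PIF5 (q = 0.87) in glk12. PIF8 had the highest deposited ratio of the set at 0.31 ± 0.19 (q = 0.46), PIF3 stood at 0.20 ± 0.18 (q = 0.73) and PIF1 at -0.08 ± 0.18 (q = 0.94). Centred on the reference genes, the glk12 ratios of PIF4 and PIF7 were -0.57 and -0.58, and that of PIF3 changed sign to -0.01. The centred value of PIF4 exceeds the 0.54 that this gene needed to pass, while that of PIF7 does not reach its 0.59. Centred on all tested genes instead, PIF4 stood at -0.38 and PIF7 at -0.39, both short of those sizes. The reference shift was given no error, and the reference ratios in glk12 ran from -0.17 to 0.44. Errors were wider in this line: a PIF gene needed a deposited log2 ratio between 0.52 (PIF5) and 0.59 (PIF7) to pass. In RPGE2-OX the sizes needed ran from 0.38 (PIF5) to 0.44 (PIF7), apart from PIF4. For PIF4, at the lowest q there, 0.52 is only an upper bound.

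Among the antagonists in glk12, HFR1 had a deposited ratio of -0.40 ± 0.21 (q = 0.33) and PAR1 of -0.25 ± 0.21 (q = 0.68), and neither passed. The size needed was 0.62 for HFR1 and 0.63 for PAR1. Centred on the reference genes, the ratios were -0.61 for HFR1 and -0.46 for PAR1, which remain under those sizes. PIL1 had an untested ratio of -0.40 in the deposited table.

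RPGE2-OX and glk12 were then set against each other. Both ratios are taken over the same WT samples, so only the difference of each gene's ratios was tested, with the implied errors added as variances. The deposited table holds no such test. HFR1 had the widest gap of the 9 genes. Its deposited log2 ratio was 0.49 in RPGE2-OX and -0.40 in glk12, a difference of 0.89 ± 0.26 (95% interval 0.39 to 1.39). Adjusted over all 21380 genes by the Benjamini-Hochberg method, p was 0.14, so the difference did not pass. The outcome depended on the setting. Adjusted p was 0.0049 when 0.5 of the smaller variance was assigned to the shared WT and taken out of both ratios. With both ratios centred on the reference genes it was 0.012, since the difference moved to 1.10 with its error kept. The reference ratios in glk12 ran from -0.17 to 0.44, and that shift was given no error. Medians over all tested genes, 0.01 in RPGE2-OX and 0.02 in glk12, would barely move the difference, but that centring was not run. With an error borrowed from the other line where one comparison sat at the lowest q, adjusted p was 0.095. HFR1 sat there in neither comparison, so its own error stayed the same. Across all genes, 32 passed (0.15% of those tested), and 189 passed with the WT part taken out (0.884%). With the errors added as variances, HFR1 was the 1 member at an unadjusted p below 0.05, against 3.65% of all genes.

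No other member differed between the lines at an unadjusted p below 0.05 with the errors added as variances. The difference, RPGE2-OX minus glk12, was -0.40 for PIF3 (95% interval -0.85 to 0.05), -0.36 for PIF4 (-0.86 to 0.13), -0.32 for PIF5 (-0.74 to 0.10) and -0.19 for PIF7 (-0.68 to 0.29). These intervals include 0 and also ratios well below 0. With the WT part taken out, the errors of PIF3 and PIF4 were 0.18 each, and intervals built on them would leave out 0. Adjusted p at that setting was 0.56 for PIF3 and 0.65 for PIF4, so neither passed. The fall of PIF4, PIF5 and PIF7 past the threshold in RPGE2-OX but not in glk12 is thus not shown to be a difference between the lines. PAR2 fell in both, with a difference of 0.32 (-0.28 to 0.91), and for PAR1 it was 0.11 (-0.41 to 0.63). PIF1 and PIF8 had differences of -0.01 (-0.45 to 0.44) and -0.07 (-0.53 to 0.39).

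**Figure D2:**
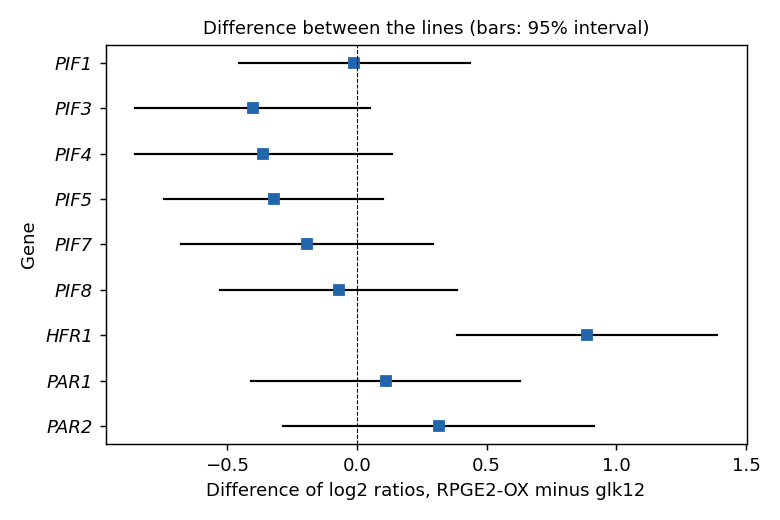
Difference of deposited log2 ratios, RPGE2-OX minus glk12 (horizontal axis), for the 9 tested genes, with squares for the difference and bars for its 95% interval. The intervals use the implied errors added as variances, with the shared WT part left in. The interval of HFR1 runs from 0.39 to 1.39, and those of the other genes include 0.

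Relatives of the members were read next. PIF6, SPT and ALC, bHLH genes close to the PIFs, passed in neither line. Other HLH and atypical bHLH genes of the elongation network fell in part. Of 11 tested genes, 3 fell and none rose in RPGE2-OX (median log2 ratio -0.28), and 2 fell and none rose in glk12 (median -0.36), with 3 further genes (PRE4, HEC2 and HEC3) not tested. Of all tested genes, 3.92% were called lower in RPGE2-OX and 3.01% in glk12. PRE2, a small HLH protein that promotes growth by binding inhibitors, was 2.14-fold lower in RPGE2-OX in the authors' deposited table (q = 0.0046). KDR, a relative of PRE2 that binds HFR1 and opposes it, was 1.52-fold lower there (q = 0.011). IBH1, an inhibitor of elongation that the PRE proteins bind, was 1.37-fold lower in RPGE2-OX (q = 0.030) and 1.77-fold lower in glk12 (q = 0.0019) there. AIF1, which also opposes growth, did not pass in RPGE2-OX at a log2 ratio of -0.85 (q = 0.055) and was 2.39-fold lower in glk12 (q = 0.027) in the deposited table. The genes that fell thus include both activators and inhibitors of elongation, as among the members.

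Over the wider family, 152 other genes carry a bHLH annotation in RefSeq. Of 121 tested in RPGE2-OX 2 rose and 8 fell (8.26%), and of 123 tested in glk12 4 rose and 8 fell (9.76%), against 6.55% of all tested genes called in RPGE2-OX and 5.67% in glk12. The falls with the largest size in the authors' table were those of MYC2, the jasmonate regulator, at 2.65-fold lower in RPGE2-OX (q = 0.025), then AT5G10570 (2.24-fold), PRE2, BHLH100 (2.08-fold) and bHLH11 (2.08-fold). In the deposited values of glk12 they were those of AT5G10570 (3.18-fold), RSL2 (2.51-fold), AT5G65320 (2.50-fold), LRL3 (2.39-fold) and AT3G21330 (2.20-fold). RSL2 and LRL3 act in root hair growth. Of the root hair genes on the marker list, COBL9 and EXPA18 fell in glk12. EXPA7 (q = 0.21), PRP3 (q = 0.17) and RHD6 (log2 ratio 0.12, q = 0.96) did not pass there. The deposited rises in RPGE2-OX were AT1G22490 (2.20-fold) and bHLH071 (1.81-fold). In glk12 they were the iron-deficiency genes bHLH39 (3.63-fold), bHLH38 (3.08-fold) and BHLH100 (1.70-fold), with AT1G22490 at 1.97-fold in the deposited table.

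Photoreceptor genes held single calls and the genes for PIF turnover none. Of 11 genes for phytochromes, cryptochromes and the nuclear transport of phytochrome A, 1 fell in RPGE2-OX and 1 rose and 1 fell in glk12, with medians of -0.06 in RPGE2-OX and -0.03 in glk12. That is 9.09% called in RPGE2-OX and 18.2% in glk12, against 6.55% and 5.67% of all tested genes. FHL, which carries phytochrome A into the nucleus, was 2.17-fold lower in RPGE2-OX (q = 0.0018) and 2.98-fold lower in glk12 (q = 0.0063) in the authors' deposited table. PHYD, a relative of phytochrome B, did not pass in RPGE2-OX, where its deposited ratio was 0.22 (q = 0.53), and was 1.55-fold higher in glk12 (q = 0.036). PHYB, the main receptor that removes PIFs in light, did not pass, with deposited ratios of -0.32 in RPGE2-OX (q = 0.18) and -0.11 in glk12 (q = 0.89). None of 17 genes for kinases, ubiquitin ligases and the COP1 and SPA proteins that set PIF or HFR1 protein levels passed in either line (medians -0.02 in RPGE2-OX and 0.06 in glk12). COP1, whose complex degrades HFR1, had deposited ratios of 0.03 in RPGE2-OX and -0.10 in glk12.

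Among 11 genes for proteins that meet PIFs, HY5 and HMR rose in RPGE2-OX and TOC1 rose in glk12, with no fall in either line. Of all tested genes, 2.53% were called higher in RPGE2-OX and 2.56% in glk12. HY5, a light-activated factor that competes with PIFs at G-boxes, was 1.5-fold higher in RPGE2-OX (q = 0.0033) in the authors' deposited table and had a ratio of -0.02 in glk12 (q = 0.99). The difference between the lines was 0.61 ± 0.25. It did not pass after adjustment over all genes. HMR, needed for PIF breakdown, was 1.55-fold higher in RPGE2-OX (q = 0.0082) and had a deposited ratio of 0.27 in glk12 (q = 0.74). TOC1, a clock component that represses PIF activity, did not pass in RPGE2-OX at a deposited ratio of 0.37 (q = 0.065) and was 1.59-fold higher in glk12 (q = 0.0035). None of the 5 DELLA genes, whose proteins sequester PIFs, passed.

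Output genes of the PIFs did not move as a group. Of 17 tested, 2 fell and none rose in RPGE2-OX (median -0.10), and 1 fell and 2 rose in glk12 (median -0.09). That is 11.8% called in RPGE2-OX and 17.6% in glk12, against 6.55% and 5.67% of all tested genes. In the authors' deposited table the auxin synthesis gene YUC2 was 1.83-fold lower (q = 0.021) and the auxin response gene IAA19 was 3.19-fold lower (q = 0.049) in RPGE2-OX. Their deposited ratios in glk12, -0.77 and -0.88, did not pass (q = 0.15 and 0.36). In glk12 the ethylene synthesis gene ACS8 was 3.04-fold lower (q = 0.0019), the sulfotransferase gene ST2A was 2.61-fold higher (q = 0.0019) and SOM, a repressor of germination under PIF1, was 3.01-fold higher (q = 0.023). ST2A, ACS8 and SOM did not pass in RPGE2-OX (q = 0.82, 0.16 and 0.23). ATHB2 and XTH15, classic shade-induced genes, had deposited ratios of -0.02 and -0.10 in RPGE2-OX and of 0.31 and 0.00 in glk12, and neither passed.

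**Figure D3:**
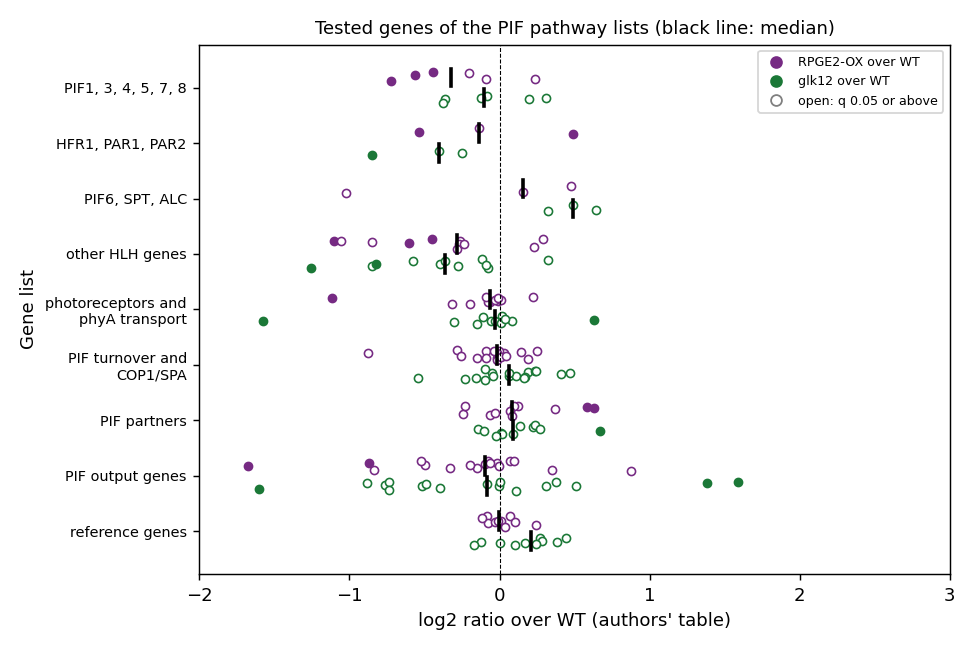
Deposited log2 ratios over WT (horizontal axis) of the tested genes in each list, with RPGE2-OX (purple) above glk12 (green), filled circles for q below 0.05 and a black line for the list's median. The PIF turnover list holds no filled circle, and the reference genes of glk12 lie around a median of 0.21.

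Gene models that overlap a member were looked up, since no label states whether strand was used when reads were assigned. PIF1 overlaps AT2G20170, which was not tested, and PIF7 overlaps AT5G61260, with deposited ratios of 0.01 in RPGE2-OX (q = 0.996) and -0.35 in glk12 (q = 0.92). The other 8 members overlap no annotated gene.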

How the data were processed

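RNA-seq of 9 seedling libraries (3 per genotype) was summarised by the submitters. Per the submitters' processing notes, CASAVA 1.8.2, TopHat, Cufflinks and Cuffdiff were used with the build TAIR10, without the role of each being stated; libraries were stranded, per the labels' protocols. The values used are the authors' deposited log2 ratios of each line over Col-0 and the q-values (p-value type) beside them, per the file headers, and what unit the ratios were formed from is not stated. A q of 1 was read as not tested.

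Raw p values were recovered by inverting the Benjamini-Hochberg adjustment (99.8% for RPGE2-OX and 99.9% for glk12 fell within 0.02 of whole steps of 5e-05 where q was low; the number of tests, 21680 and 21844, was chosen to maximise this). The implied standard error is the ratio's size over the normal quantile of p; where that quantile was below 0.1, the difference test used the larger of a gene's errors. The size needed to pass is that error times the quantile at the highest called p. The difference between the lines used a normal two-sided p, and intervals are 95%. Scripts (Python 3.11.15, numpy 2.4.6, pandas 2.3.3, scipy 1.17.1, Biopython 1.88, matplotlib 3.10.9) were tested on simulated data. Sequences and gene models are RefSeq's on TAIR10.1.

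The members and lists were chosen with earlier results of these data known. All 10 members are named, as are list genes that passed in either line and, of other bHLH genes, up to 5 per line and direction; a few further list genes (PHYB, COP1, ATHB2, XTH15) were added after their values were seen. Counts by direction leave out called genes with an infinite ratio (21 in each line). Other thresholds, centrings and error models were tried as alternatives. No replicate could be left out, since the table holds none.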

Additional observations from a re-analysis of the deposited data

How the results depend on the processing

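At q below 0.01 the count of members called was 2 in RPGE2-OX, PIF4 and PIF7, and 0 in glk12. Requiring at least 1.5-fold left 1 in RPGE2-OX, PIF4, and kept PAR2 in glk12. The shares of all tested genes that pass these 2 stricter cuts were not counted, so the drops cannot be set against a general one. The counts of 5 and 1 were the same at q below 0.10 and when adjusted over genes tested in both comparisons. After centring on the reference genes or on all tested genes, only the direction of called members was checked, so no member could be added. All 5 in RPGE2-OX and the 1 in glk12 kept their direction. PIF4 in glk12, not called, reached -0.57 when centred on the reference genes, beyond the 0.54 that it needed. Centred on all tested genes it was -0.38, short of that size. Between the lines 0 members passed with errors at their bounds or borrowed, and 1, HFR1, passed with the WT part taken out or with both ratios centred on the reference genes; those settings gave 32, 80, 189 and 49 genes in all. Of 40 centred member ratios, 6 moved by more than their standard error, all PIF genes in glk12 (PIL1, which has no error of its own, was judged by the median error of all genes in each line), and 0 called ratios changed sign. Centring shifts every ratio of a line by the same amount, so this count reflects only the size of each gene's error. In glk12 the shift on the reference genes was 0.2070, and HFR1, with an error of 0.2073, was narrowly not counted. No paired analysis was possible because the table holds no replicate values; leaving out replicates was not run for the same reason. Depth is unknown, so the limits stated for each gene rest on q values alone.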
